A study of Homo sapiens with 8 samples.

Results

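Intergenic loci just downstream of genes were assembled transcription units of HAP1 nuclei that began shortly after the 3′ end of an annotated gene on the same strand. They were taken from the short-read gene table as assembler-named loci on the main chromosomes that overlapped no GENCODE gene on either strand, started within 10 kb downstream of a same-strand gene, and reached at least 10 normalized counts in at least 3 of the 6 short-read libraries. Of 33606 assembler-named loci on the main chromosomes, 942 overlapped no gene and 568 of these lay downstream of a gene. The filter on low values removed 10, and 558 loci remained, downstream of 476 distinct genes, among 62727 genes of the whole table. A further 363 intergenic loci passed the same filter without lying downstream of a gene.

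HAP1 cells carry close to a single set of human chromosomes and descend from KBM-7 cells, which were taken from a leukemia. Nuclei of 3 independent cultures were extracted with urea and detergent and separated into a soluble nucleoplasm fraction and a chromatin pellet, the same ERCC spike-in RNA was added to each fraction, ribosomal RNA was depleted, and directional short-read libraries were made (3 chromatin, 3 nucleoplasm). Chromatin RNA was also sequenced as long cDNA reads (2 libraries) after enzymatic addition of a poly(A) tail. No genotype or treatment differed between the groups, and they were read from the sample titles, because the fraction label of every sample names chromatin. The short-read table held 38895027 to 43804918 reads per chromatin library and 75737601 to 79523938 per nucleoplasm library, of which the downstream loci took 0.218 to 0.237% and 0.111 to 0.124%. The nuclear RNAs MALAT1 and NEAT1 were called higher in chromatin and the mRNAs GAPDH and B2M higher in nucleoplasm. None of 7 blood cell markers passed the filter on low values, whereas all 5 epithelial and fibroblast markers did. In such bulk fractions, fewer nuclei and less RNA per nucleus cannot be told apart.

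At most protein-coding genes, RNA polymerase II transcribes past the poly(A) signal, the nascent RNA is cut behind the signal, and the piece still held by the polymerase is degraded until transcription stops. RNA from beyond the cut is therefore usually short-lived and bound to chromatin, while the polyadenylated mRNA leaves for the nucleoplasm and cytoplasm. A processed pseudogene arises differently: an mRNA is copied into DNA and inserted elsewhere in the genome, often with its untranslated ends and poly(A) tail. Annotations of such copies often cover only the stretch that resembles the coding sequence.

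To show where the loci begin, the ends of the 11 genes upstream of the loci with the largest fold changes towards chromatin (6) or the largest locus-to-gene differences (5) were read from hg38. Each line holds 30 bases of the sense strand from the last 50 bases of the gene, with the hexamer AATAAA or its variant ATTAAA, the core of the poly(A) signal, in capitals. Since each locus had to start behind the gene end, it lay beyond any such hexamer by definition.
TBL1XR1 (chr3:177019360-177019389, - strand): aaatatATTAAAcacaaagtgtttagtaaa
DHX15 (chr4:24517441-24517470, - strand): atcttgttataacaATTAAAcagttcgtat
MTF2 (chr1:93139040-93139069, + strand): aaacagaccaacATTAAAtgtgtgtatttt
STT3B (chr3:31637583-31637612, + strand): gactgtaggggaAATAAAgttaattcaaat
WASF1 (chr6:110099825-110099854, - strand): acagtctgatttAATAAAtggttcatttta
CHCHD2 (chr7:56101576-56101605, - strand): tgagttaattagAATAAAgtcattttcttc
GSTP1 (chr11:67586620-67586649, + strand): ttctccaggaccAATAAAatttctaagaga
PSMC3 (chr11:47418778-47418807, - strand): gctgaagtgcgcAATAAAagatggtttagg
SH3BGRL (chrX:81298508-81298537, + strand): gctatgctttaaAATAAActcagtactttt
COX5A (chr15:74919796-74919825, - strand): ggaggcattctgATTAAAcagctgagtaaa
In these 10 genes, 10 to 38 bases separated the hexamer from the annotated gene end. No hexamer was found in the last 50 bases of RLIM.

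Some loci held such a hexamer themselves. Of 8 copies of mRNAs searched, 3 (EIF5AP4, EIF4HP1 and NUDT4P2) had one in a stretch shared with the mRNA, and for TPI1P1, ATP1B3P1, NUTF2P7, HNRNPKP1 and YWHAEP5 none was found in such a stretch. The loci after the processed pseudogenes EIF5AP4 and EIF4HP1 held near their 3′ ends a stretch that was identical over 30 bases to one near the end of the EIF5A and EIF4H mRNAs, which encode a translation factor each, and the ungapped stretch of the EIF5AP4 locus with the most differences from EIF5A differed at 2 of 30 bases. In the first pair of lines capitals mark the hexamer and in the last pair the differing bases.
EIF5AP4 locus, 3′ end (chr10:80246576-80246605, - strand), also in EIF5A: acctgAATAAAactacaagtttaatatgaa
EIF4HP1 locus, 3′ end (chr7:27456371-27456400, - strand), also in EIF4H: taAATAAAagaaaaccttacgtaatattta
EIF5AP4 locus (chr10:80247116-80247145, - strand): tggctctggccTggtcctaGgctggactcc
EIF5A mRNA, same stretch: tggctctggccCggtcctaAgctggactcc

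The loci started a median of 1434 bases after their gene, with a range from 2 to 9963 bases. Of the 558 loci, 222 started within 1 kb, 111 from 1 to 2 kb, 126 from 2 to 5 kb and 99 from 5 to 10 kb. Their span had a median of 604 bases and ranged from 200 to 15283 bases, and 556 loci longer than 200 bases entered the tests. By the biotype of the upstream gene, 253 loci followed protein-coding genes, 159 followed processed pseudogenes, 49 followed other pseudogenes, 68 followed long noncoding RNA genes (lncRNA, counted together with 5 loci after genes that GENCODE lists as TEC) and 28 followed small RNA genes. One locus followed a T cell receptor segment. A single downstream locus was found for 412 genes, and 64 genes had 2 or more, so that 146 loci shared their gene with another and are not independent of it.

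The fraction ratio of each locus was estimated as the log2 fold change of chromatin over nucleoplasm on the log2(normalized count + 1) scale, with limma over all 26066 tested genes, and a locus was called at a Benjamini-Hochberg adjusted p under 0.05 and a change of more than 4-fold. Of the 556 tested loci, 246 were called higher in chromatin and 47 higher in nucleoplasm. Over all tested genes, 21.2% were called higher in chromatin and 8.47% higher in nucleoplasm. The 246 include loci that passed the filter on low values through chromatin libraries alone, whose number was not counted. The median log2 fold change of the loci was 1.43, compared with -0.02 over all tested genes. All 3 chromatin libraries lay above all 3 nucleoplasm libraries for 348 loci (44.6% of all tested genes) and below them for 168 loci (46.0% of all tested genes). The authors' size factors set this scale. With every library scaled to an equal ERCC total, the median over all tested genes fell from -0.02 to -1.33 and that of the loci to 0.18, so that the loci kept their position above the typical gene while 145 were called higher in chromatin and 147 higher in nucleoplasm.

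Loci after protein-coding genes and loci after processed pseudogenes had median fold changes of opposite sign. After protein-coding genes, 165 of 253 loci (65.2%) were higher in chromatin and 3 (1.19%) higher in nucleoplasm, with a median log2 fold change of 2.77 and an interquartile range from 1.19 to 3.79. After processed pseudogenes, 9 of 157 loci (5.73%) were higher in chromatin and 42 (26.8%) higher in nucleoplasm, with a median of -1.48 and an interquartile range from -2.02 to -0.80. Loci after other pseudogenes (27 of 49 called higher in chromatin, median 2.30) and after lncRNA genes (37 of 68, median 2.39) were on the chromatin side as well. Loci after small RNA genes were called higher in chromatin in 8 of 28 cases, with a median of 1.67. The difference between the classes was not tested. With equal ERCC totals the medians fell to 1.55 after protein-coding genes and -2.75 after processed pseudogenes, and with the same total of reads they rose to 3.22 and -1.03, so that each class kept its side. The counts depended on the scaling far more. With equal ERCC totals, 102 loci after protein-coding genes and 2 after small RNA genes were called higher in chromatin and 122 after processed pseudogenes higher in nucleoplasm, and with the same total of reads these counts were 173, 13 and 15. No share over all tested genes was taken at these scalings.

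**Figure D1:**
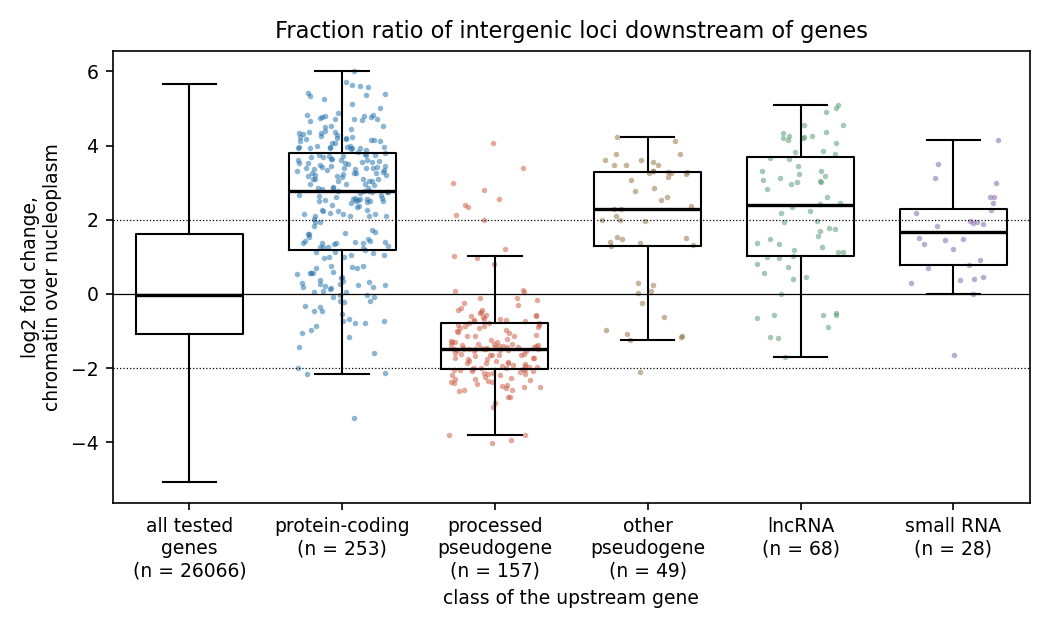
Log2 fold change of chromatin over nucleoplasm (vertical axis) for all tested genes and for the downstream loci by class of the upstream gene, where each point is a locus, boxes span the quartiles with the median as a line, whiskers reach the last value within 1.5 box lengths, and dotted lines mark a 4-fold change. Loci after protein-coding genes have a median of 2.77 and loci after processed pseudogenes a median of -1.48.

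The 6 loci with the largest fold changes towards chromatin all followed protein-coding genes. The locus after TBL1XR1, a subunit of a transcriptional corepressor complex, spanned chr3:177011875-177017450 and started 1890 bases after the gene. It reached 648, 725 and 737 normalized counts in the chromatin libraries and 8.78, 12.1 and 9.29 in the nucleoplasm libraries. Every chromatin library was thus far above every nucleoplasm library, with a log2 fold change of 6.0 ± 0.14 (SE, n = 3 per fraction, limma adjusted p = 9.45e-09). TBL1XR1 itself had 15705, 16716 and 16421 normalized counts in chromatin and 13757, 12594 and 12657 in nucleoplasm, and changed by 0.33 ± 0.05 on the log2 scale.

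The locus after DHX15, an RNA helicase of the spliceosome, had 544, 586 and 700.4 normalized counts in chromatin and 14.9, 6.89 and 11.0 in nucleoplasm (log2 fold change 5.73 ± 0.24). Its groups did not overlap, and the gene changed by only 0.14 ± 0.05 on the log2 scale. After MTF2, a Polycomb accessory protein, the locus had 287, 312 and 293 normalized counts in chromatin and 5.27, 6.89 and 3.38 in nucleoplasm (5.63 ± 0.22). A locus 7730 bases after STT3B, a catalytic subunit of the oligosaccharyltransferase, had 447, 496 and 495 in chromatin and 6.14, 12.9 and 8.45 in nucleoplasm (5.61 ± 0.23), although the gene itself was lower in chromatin (-0.58 ± 0.05). The loci after WASF1, an actin regulator, and RLIM, a ubiquitin ligase, had log2 fold changes of 5.59 ± 0.12 and 5.42 ± 0.18. The ranges of the 2 fractions were apart for each of these loci, and limma adjusted p-values for these 6 loci were at most 6.02e-08. At 2 loci, after SLMAP and ZNF485, no read was listed in any nucleoplasm library. Against a floor of 3 counts per library, the SLMAP locus was at least 9.87-fold higher in chromatin. For the ZNF485 locus this bound was at least 5.68-fold. These 2 loci are among 35 loci with at most 3 reads in each nucleoplasm library. All 35, and the MTF2 locus, passed the filter on low values through chromatin libraries alone, as did further loci that were not counted. The excess of all such loci in chromatin is thus partly fixed by the filter.

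**Figure D2:**
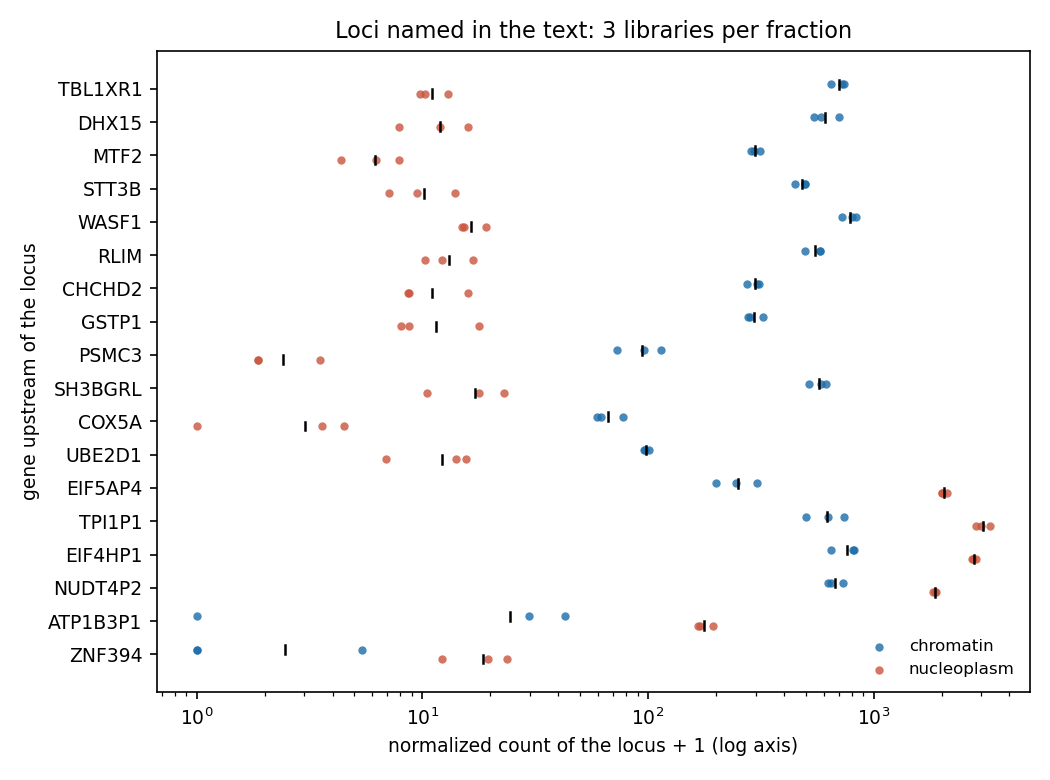
Normalized count + 1 of 18 named loci (horizontal log axis) in each of 3 chromatin (blue) and 3 nucleoplasm (red) libraries, with short black lines at the means. From TBL1XR1 to UBE2D1 all chromatin libraries lie to the right, and from EIF5AP4 to ZNF394 all nucleoplasm libraries do.

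To set each locus against its own gene, the locus-to-gene ratio was formed within each library, which does not depend on how the library was scaled except through the pseudocount. It was fitted over 23603 pairs, and a change of more than 2-fold was called. Each locus was paired with the annotated gene it followed. Every other tested gene was paired with the nearest tested gene of the table that ended upstream on its strand, at any distance. Shares over all pairs are therefore a background of another kind of pair. A pair was available for 430 loci. For 39 loci the upstream gene matched no row of the table, and for 88 the gene was under the filter on low values or no longer than 200 bases. The ratio was higher in chromatin for 214 loci and lower for 19, with a median difference of 1.06 on the log2 scale. Over all pairs, 34.5% were called higher and 26.2% lower, with a median of 0.18. After protein-coding genes, the ratio was higher in chromatin for 185 of 238 loci (77.7%) and lower for 3, and the median difference was 2.50. The genes of these loci had a median log2 fold change of -0.08, close to that over all tested genes, against 2.78 for the loci. For 104 of the 238 loci, the locus was above 0 and the gene below 0, and both were past the adjusted p threshold of limma for 87. The share of such opposite directions over all pairs was not taken, so these counts have no background beside them. After processed pseudogenes, 8 of 124 ratios were higher in chromatin and 6 lower, the remaining 110 were not called, and the median difference was -0.08.

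**Figure D3:**
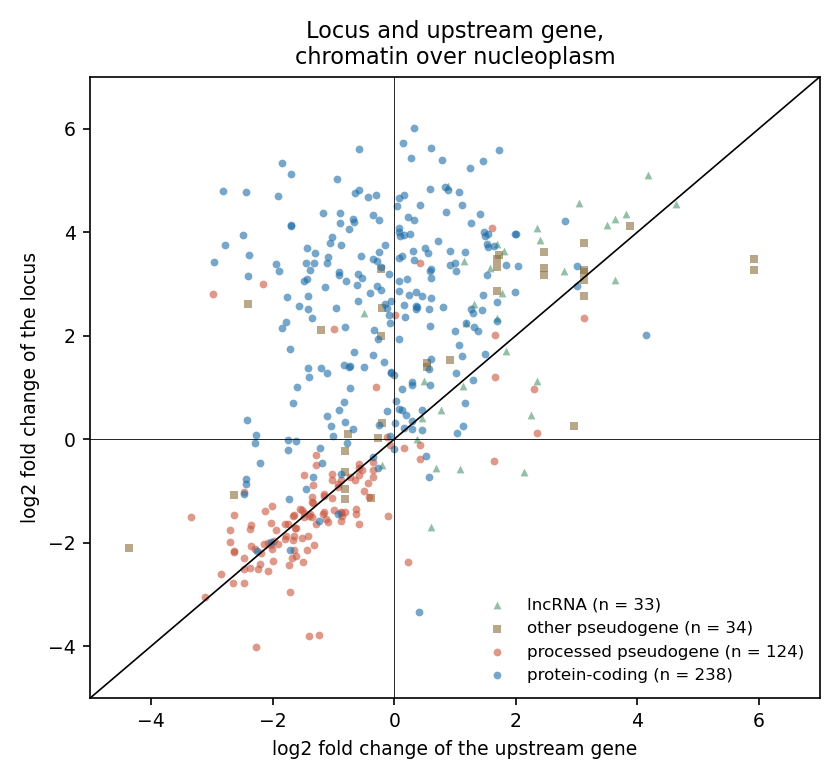
Log2 fold change of chromatin over nucleoplasm for the upstream gene (horizontal axis) and the downstream locus (vertical axis), where each point is a pair, the diagonal marks equal change, and 1 pair of a small RNA gene is left out. Pairs of protein-coding genes (blue) lie mostly above the diagonal and those of processed pseudogenes (red) along it.

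The largest differences were at genes whose own RNA was depleted from chromatin, which the ranking favors, since a lower fold change of the gene raises the difference. CHCHD2, a mitochondrial protein, had 2323, 1982 and 2615 normalized counts in chromatin and 15912, 15952 and 16489.8 in nucleoplasm (log2 fold change -2.81 ± 0.09). The locus 1122 bases behind it had 274, 303 and 311 in chromatin and 14.9, 7.75 and 7.60 in nucleoplasm (4.8 ± 0.24). Gene and locus thus moved in opposite directions, and the locus-to-gene ratio differed by 7.62 ± 0.26 on the log2 scale (limma adjusted p = 3.69e-08). GSTP1, a glutathione transferase, had 7219, 6021 and 7380.2 normalized counts in chromatin and 36869.9, 36603 and 38247 in nucleoplasm. Its locus at chr11:67587423-67590216, 767 bases away, had 277, 283 and 324 in chromatin and 7.02, 7.75 and 16.9 in nucleoplasm. The ratio differed by 7.22 ± 0.28, again with separate groups for gene and locus in opposite directions. The locus after PSMC3, a proteasome ATPase, had 72.2, 113 and 95.5 normalized counts in chromatin but only 5 reads in the 3 nucleoplasm libraries together, a ratio of 65.1 with a 95% exact counting interval from 27.5 to 202. The locus after COX5A, a subunit of cytochrome c oxidase, rested on 7 nucleoplasm reads, with a ratio of 32.7 and an interval from 15.5 to 82.6. Such intervals cover counting error only, and both loci passed the filter on low values through chromatin libraries alone. The ratio for SH3BGRL, whose locus began 6091 bases downstream, differed by 6.82 ± 0.27.

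After protein-coding genes, the median fold change was lowest for the loci nearest to the gene and highest at middle distances. Loci within 1 kb of such a gene had a median log2 fold change of 2.26 (38 of 72 called higher in chromatin), those from 1 to 2 kb one of 3.11 (36 of 53), those from 2 to 5 kb one of 3.0 (57 of 74) and those from 5 to 10 kb one of 2.56 (34 of 54). The lower quartile was 0.24 within 1 kb and 2.1 from 2 to 5 kb. Across the 253 loci, Spearman's rho of distance and log2 fold change was 0.07, which does not capture a rise followed by a fall, and that of span and log2 fold change 0.25, as a description of loci that share libraries. Longer loci were called more often, with 33 of 64 loci under 500 bases, 70 of 105 from 500 to 2000 bases and 62 of 84 of 2000 bases or more higher in chromatin, and the median mean count rose over the same bins from 17.8 to 59.4 and 239 normalized counts, whose part in the share of calls was not tested. The nearest locus after a coding gene began 5 bases after UBE2D1, a ubiquitin-conjugating enzyme. It had 100.2, 96.1 and 95.5 normalized counts in chromatin and 13.2, 14.6 and 5.91 in nucleoplasm, while the gene had 959.7, 778 and 916 in chromatin and 2492, 2273 and 2379 in nucleoplasm. The 2 moved in opposite directions, with a difference of the ratio of 4.52 ± 0.31 (limma adjusted p = 1.8e-06).

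**Figure D4:**
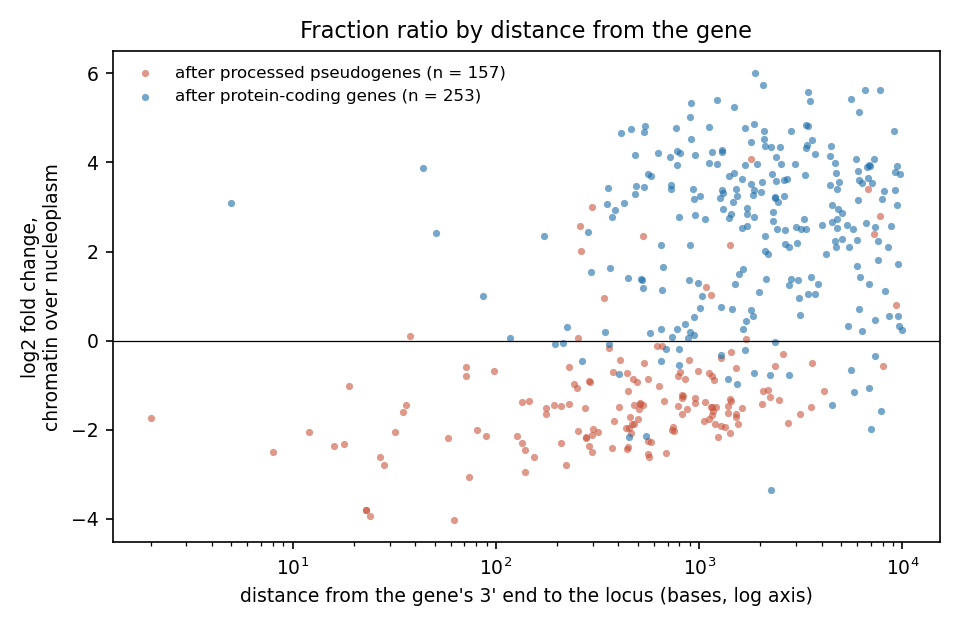
Distance from the 3′ end of the gene to the start of the locus (horizontal log axis, bases) and log2 fold change of chromatin over nucleoplasm (vertical axis) for loci after protein-coding genes (blue) and after processed pseudogenes (red). Most loci within 100 bases of their gene follow processed pseudogenes, and loci after protein-coding genes have medians between 2.26 and 3.11 in all 4 distance ranges.

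Some genes were followed by a series of loci. After UPRT, an enzyme of the uracil phosphoribosyltransferase family, 4 loci started at 1118, 4385, 7272 and 9431 bases. Their chromatin means per kb of span were 129, 106, 102 and 107 normalized counts, and their nucleoplasm means per kb were 8.25, 9.36, 5.70 and 10.6. All 4 were called higher in chromatin (log2 fold changes of 4.00, 3.50, 4.08 and 3.05), whereas UPRT itself was at 0.07 ± 0.04. The farthest of them matched a transcript of SOD2 at 92.2% identity. The 5 loci after SMG1P7, a lncRNA gene of the SMG1 pseudogene family, started between 1193 and 8692 bases behind it and had 171, 110.3, 127, 121 and 130 normalized counts per kb in chromatin, in order of distance. Log2 fold changes were between 1.77 and 3.18, and 4 of the 5 passed the 4-fold threshold. A pseudogene on chromosome Y, ENSG00000235583, was followed by 5 loci, all called higher in chromatin. All 5, and the farthest UPRT locus, passed the filter on low values through chromatin libraries alone, so that their direction is partly fixed by the filter. In contrast, the 4 loci after ENSG00000226521, an unprocessed pseudogene, had log2 fold changes from -1.15 to -0.23, none of them called, and each matched the RPS6KB1 mRNA at 97.4 to 98.8% identity. Over the 26 protein-coding genes with 2 or more loci, the loci had the same call within 23 genes, and the farthest locus was at a median of 0.945 times the chromatin level per kb of the nearest.

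Loci after processed pseudogenes were compared with all annotated transcripts by BLAST, and a match needed at least 90% identity over at least 50% of the locus. A match to a transcript of a protein-coding gene was found for 147 of 159 loci after processed pseudogenes, against 12 of 253 loci after protein-coding genes and 13 of 49 after other pseudogenes. The 147 matches were to 109 coding genes, with a median identity of 97.8%, and in 105 of them the symbol of the pseudogene began with that of the matched gene. For 143 of the 147 loci, the match began behind the coding sequence of the transcript, in its 3′ untranslated region. The hexamer AATAAA or ATTAAA was found within 50 bases of either side of the 3′ end (100 bases in all, sense strand) for 41.5% of loci after processed pseudogenes but for 8.82% of the pseudogene ends themselves. In contrast, it was found for 73.5% of the 3′ ends of the upstream protein-coding genes and for 20.2% of the ends of the loci behind them. The share was 49.8% over all tested genes and 21.2% for intergenic loci that lay downstream of no gene. On the opposite strand, the shares were 28.3, 10.3, 26.0, 16.2, 19.6 and 14.6%, in the same order. A run of 10 or more A lay in the same window for 17.0% of the loci after processed pseudogenes and for 2.37% of those after protein-coding genes.

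Nucleoplasm-enriched loci followed mainly such copies. Of the 47 loci higher in nucleoplasm, 42 were after processed pseudogenes, and 45 matched an annotated transcript. The locus after EIF5AP4, 74 bases away at chr10:80246570-80247145, had 243, 199 and 303 normalized counts in chromatin and 2014, 2009 and 2108 in nucleoplasm (log2 fold change -3.05 ± 0.13, limma adjusted p = 7.09e-08). Its groups did not overlap, and EIF5AP4 (-3.11 ± 0.09) and EIF5A (-3.0 ± 0.08) had almost the same fold change. The locus after TPI1P1, a copy of the glycolytic enzyme TPI1, had 630.1, 499.6 and 741 in chromatin and 3281, 2847 and 2989 in nucleoplasm (-2.30 ± 0.13), beside -2.48 ± 0.09 for TPI1P1 and -2.32 ± 0.10 for TPI1. The locus after EIF4HP1 (99.8% identical to EIF4H) had 806, 647 and 820.0 in chromatin and 2837, 2757 and 2735 in nucleoplasm (-1.88 ± 0.09), and that after NUDT4P2 had 649, 627 and 734 in chromatin and 1870.1, 1882 and 1832 in nucleoplasm (-1.48 ± 0.07). All nucleoplasm libraries were above all chromatin libraries for these 4 loci, though EIF4HP1 and NUDT4P2 did not reach a 4-fold change. The loci after TPI1P1, EIF4HP1 and NUDT4P2 are among the 6 with the highest mean counts. How reads that fit both a copy and its coding gene were assigned is not given in the sources used here, so that counts of copies are uncertain, and the part of such reads was not tested.

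**Figure D5:**
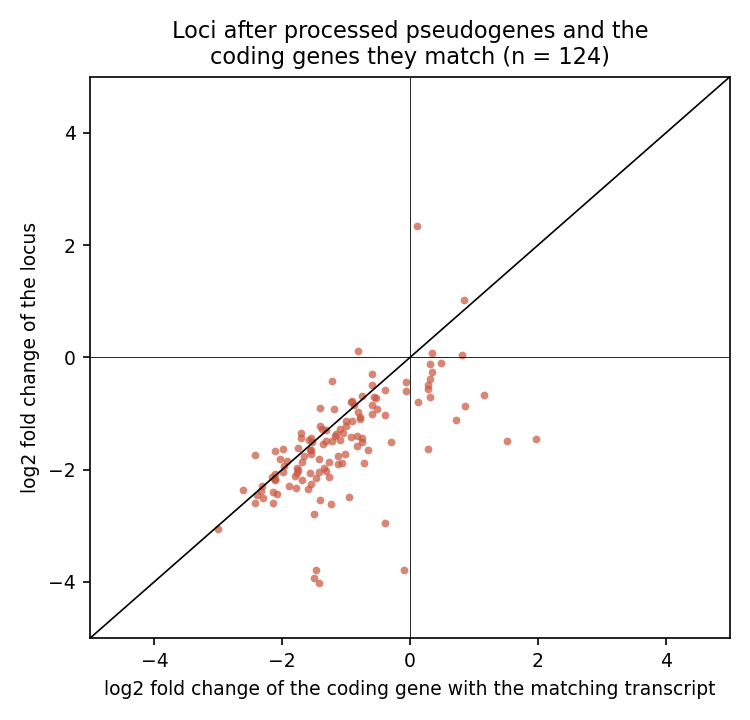
Log2 fold change of chromatin over nucleoplasm of the coding gene with the matching transcript (horizontal axis) and of the locus after a processed pseudogene (vertical axis), where each point is a locus and the diagonal marks equal change. Of 124 loci, 105 lie within 1 log2 unit of the coding gene.

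Across 124 loci after processed pseudogenes whose matched coding gene was tested, the locus had a median log2 fold change of -1.53 and the coding gene one of -1.22. Both were below 0 for 105 loci, the 2 values were less than 1 log2 unit apart for 105, and Spearman's rho was 0.72, as a description of loci that share libraries and may share reads with the coding gene. The 9 loci called higher in chromatin after processed pseudogenes were an exception, since 7 of them matched no transcript. Without all loci that matched a transcript, 240 of 364 remaining loci (65.9%) were higher in chromatin and 2 (0.549%) higher in nucleoplasm, with a median log2 fold change of 2.78, and the ratio to the gene was higher in chromatin for 205 of 283 (72.4%) and lower for 11. Medians also differed by match within classes. After protein-coding genes, they were 0.46 for 15 loci with a match and 2.87 for 238 without. After other pseudogenes, they were 0.20 for 20 with and 3.27 for 29 without. The 12 loci after processed pseudogenes that matched no coding transcript had a median of 2.27. The part of the match in the difference between classes was not tested.

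The lowest fold changes rested on exact zeros, which may be failed estimates. In 4 of the 6 loci with the lowest fold changes, 1 chromatin library was listed at 0 beside 2 libraries with at least 20 reads, a pattern seen in either fraction at 5 of 159 loci after processed pseudogenes, at none of the 253 after protein-coding genes and at 0.272% of all tested genes. The locus after ATP1B3P1, a copy of a sodium pump subunit, had 0, 28.8 and 41.7 normalized counts in chromatin and 168, 166 and 193 in nucleoplasm (-4.03 ± 1.22, limma adjusted p = 0.0128). Without chromatin replicate 1 its log2 fold change was -2.31. The loci after NUTF2P7 and HNRNPKP1 had -3.94 ± 1.17 and -3.80 ± 1.21, and -2.29 and -2.09 without chromatin replicate 2. The locus after ENSG00000236773, which matched ZNF706 at 99.0% identity, had -3.80 ± 1.35 (limma adjusted p = 0.0262) and was no longer called without chromatin replicate 1 (-1.89), without any 1 of the nucleoplasm libraries (limma adjusted p = 0.0509 to 0.0627), without the filter on low values (0.0548) or with DESeq2 (adjusted p = 0.114). The HNRNPKP1 locus was not called with DESeq2 (adjusted p = 0.0565). The locus nearest to its gene, 2 bases after YWHAEP5, had 0, 132 and 164 in chromatin and 0, 884 and 920.0 in nucleoplasm, so that its fold change (-1.74 ± 2.86, limma adjusted p = 0.576) could not be estimated with any precision and changed sign without chromatin replicate 1 (0.66).

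At the authors' scaling, 3 of the 253 loci after coding genes were called higher in nucleoplasm, and 13 were with equal ERCC totals. At the authors' scaling 27 had a log2 fold change below 0, 18 of them at a limma adjusted p under 0.05. The locus after ZNF394, a zinc finger gene, had 0, 0 and 4.39 normalized counts in chromatin and 22.8, 11.2 and 18.6 in nucleoplasm, and was called lower in chromatin (log2 fold change -3.35 ± 0.67, limma adjusted p = 0.00131). At the authors' scaling it was the only one of the 253 to be called higher in nucleoplasm without matching a transcript. ZNF394 itself was slightly higher in chromatin (0.40 ± 0.06), and the difference of the ratio was -3.75 ± 0.70. With 2 chromatin libraries at 0, these values depend on the pseudocount, and with a pseudocount of 5 the log2 fold change was -1.83 and was no longer called. The ZNF394 locus passed the filter on low values through nucleoplasm libraries alone. The other two, after SETSIP and PPP1R2B, matched the mRNAs of SET and PPP1R2 and had log2 fold changes of -2.16 and -2.14. The other ratios that were called lower after coding genes belonged to TAF1B (-1.31 ± 0.11) and ANKRD36B (-2.13 ± 0.20). In TAF1B, the locus was lower in chromatin than in nucleoplasm and the gene higher. Among the remaining pairs with the lowest ratios, the locus after the antisense gene TRIM7-AS1 had 18.6, 13.2 and 9.88 normalized counts in chromatin and 22.8, 21.5 and 20.3 in nucleoplasm, beside a gene at 2.13 ± 0.22, and matched OR10H5 at 90.9% identity. For PDE4DIPP8 and for both loci after ANAPC1P5, the gene had 0 to 2 reads in each nucleoplasm library, so that the differences of -2.71, -2.64 and -2.44 depend on the pseudocount.

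The locus with the highest mean count followed RNF141 and matched the mitochondrial 12S ribosomal RNA gene MT-RNR1 at 97.4% identity. It had 10246, 5323 and 4911 normalized counts in chromatin and 15272, 9039 and 8961 in nucleoplasm. Replicate 1 was the highest in both fractions and the ranges of the fractions overlapped, but chromatin was below nucleoplasm in each of the 3 pairs of libraries with the same number. The log2 fold change was -0.74 ± 0.30 (limma adjusted p = 0.044, and 1.76e-05 with the replicate number as a block). Without chromatin replicate 2, chromatin replicate 3 or nucleoplasm replicate 1 the limma adjusted p was 0.134, 0.153 and 0.153. A locus of 15283 bases downstream of a signal recognition particle RNA copy on chromosome 15 had 3895, 3976 and 3578 normalized counts in chromatin and 1620.0, 1643 and 1636 in nucleoplasm (1.22 ± 0.05). It was above nucleoplasm in every chromatin library without reaching a 4-fold change.

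Few of the loci followed replication-dependent histone genes or small nuclear RNA genes. Replication-dependent histone mRNAs end in a stem-loop, and 1 locus followed such a gene, H3C14, by 8170 bases (528.8, 447 and 495 normalized counts in chromatin and 228, 223 and 223 in nucleoplasm, log2 fold change 1.12 ± 0.08). Small nuclear RNA (snRNA) ends are largely cut by the Integrator complex. Of 5 loci after snRNA genes or their copies, those after RNU1-27P (3.14 ± 0.16) and RNU11 (2.18 ± 0.34) were called higher in chromatin, and those after RNVU1-27 (1.47 ± 0.21) and RNU6-1254P (0.46 ± 0.08) had smaller changes. The locus 14 bases after RNU2-63P had 377, 366 and 399.6 normalized counts in chromatin and 211, 176 and 0 in nucleoplasm, and its log2 fold change fell from 3.51 to 0.98 without nucleoplasm replicate 3.

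Few RNAs of the factors that cut and terminate transcripts were called in either direction. Of 73 listed genes for cleavage and polyadenylation, termination, Integrator and the nuclear exosome, 61 were tested, with a median log2 fold change of -0.35, and 21 were higher and 35 lower in chromatin by limma at an adjusted p under 0.05. The shares of all tested genes past this threshold alone were not taken, so these counts are not a result about the listed genes. None was called higher in chromatin by more than 4-fold, and EXOSC5 (-2.51 ± 0.07), an exosome subunit, and PPP1CA (-2.43 ± 0.07), a phosphatase catalytic subunit of the termination machinery, were called higher in nucleoplasm, 2 of 61 beside 8.47% of all tested genes. The exosome list was near balance, with 4 genes higher and 5 lower and a median of -0.08. The highest were PCF11 (1.47 ± 0.04), a cleavage factor that acts in termination, and INTS6 (1.42 ± 0.06), an Integrator subunit, which were at 0.15 and 0.09 with equal ERCC totals.

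Long reads covered a minority of the loci in chromatin. A transcript assembled from long reads, with a TPM above 0 in both libraries, overlapped 159 of the 558 loci (28.5%) on their strand and 238 on either strand. The cDNA kit used for long reads does not keep the strand, and whether strands were assigned before assembly is not given in the sources used here, so that the strand of these transcripts is uncertain. The 28.5% stood beside 126 of 363 intergenic loci (34.7%) that lay downstream of no gene. The share was 39.9% after protein-coding genes and 16.4% after processed pseudogenes. A long-read transcript whose span overlapped both the locus and its gene, by any number of bases, was found for 40 loci. Of these, 24 followed protein-coding genes. With transcripts of either strand the count was 83. Such a transcript need not cover the whole locus or the whole gene. The TPM of all such transcripts of a locus were summed. Examples were TBL1XR1, with 37.5 and 18.5 TPM in the 2 libraries, TLE3, a corepressor, with 22.0 and 16.9, and WSB1, a ubiquitin ligase adaptor, with 117 and 6.95. In WSB1 the 2 libraries thus differed widely. Loci after coding genes that were overlapped together with their gene and those that were not had median log2 fold changes of 2.72 and 2.79. Of these, 15 of 24 and 150 of 229 were called higher in chromatin.

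Intergenic loci that followed no gene were called higher in chromatin in 181 of 362 cases (50.0%) and higher in nucleoplasm in 13 (3.59%), with a median log2 fold change of 2.01, and 92 of 363 (25.3%) matched an annotated transcript. The farthest downstream locus, 9963 bases after GNGT2, had a log2 fold change of 0.24 ± 0.13, and the nearest locus beyond the limit, at 10001 bases, had one of 1.24 ± 0.52. At the filter on low values, the third-highest library held 10.5 normalized counts in the weakest downstream locus and 9.32 in the strongest one left out.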

How the data were processed

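RNA of HAP1 nuclear fractions was measured in 8 libraries. For short reads, the authors aligned with HISAT2 2.1.0 to hg38 with ERCC sequences, assembled and quantified with StringTie and deposited gene values normalized by DESeq2 size factors, used here as a signal. Each library's values were whole multiples of its smallest value (100% within 1e-06), so whole read counts were recovered. How reads with several placements were assigned is not given in the sources used here. For long reads, the authors deposited StringTie transcript TPM after minimap2 alignment. Columns of comparisons by the authors were not used.

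Loci were set against GENCODE release 44 (hg38), distances ran from the 3′ end of the gene to the 5′ end of the locus, and upstream genes were matched to table rows by identifier or by a Jaccard index of at least 0.5. Genes that were longer than 200 bases and held 10 or more normalized counts in 3 or more libraries were tested with limma 3.58.1 (R 4.3.3) on log2(value + 1) with a mean-variance trend. Locus-to-gene ratios were fitted likewise, with the trend over the lower of the 2 mean levels. P-values are two-sided and Benjamini-Hochberg adjusted over all genes or pairs. With 3 cultures per fraction they measure the spread between these libraries. On simulated data, the gene fit recovered 200 of 200 changed genes among 26066 with 0 false calls, and the pair fit 362 of 362 changed pairs among 23603 with 15 calls among unchanged pairs. The planted changes were all of 3 on the log2 scale, above the threshold, and all genes had the same dispersion. Smaller changes and uneven spread were not simulated, so these counts do not give the error rates on the real data. edgeR 4.0.16 and DESeq2 1.42.0 on the recovered counts, other scalings, pseudocounts and filters were tried. Sequences were matched with BLAST 2.17.0 (sense strand, e-value at most 1e-10). Named loci had the highest means, the largest or smallest fold changes or ratio differences among those called, the most loci per gene or the shortest distance, or followed histone or snRNA genes, and SLMAP, ZNF485, TLE3, WSB1, TAF1B, ANKRD36B, SETSIP and PPP1R2B were named after their values were seen. The loci and lists were chosen with earlier results of these data known. Replicate numbers were checked for pairing by correlating the deviations of same-numbered libraries from their group means (0.09, 0.05 and 0.06), and since the labels do not tie a number to a culture, no block was used.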

Additional observations from a re-analysis of the deposited data

How the results depend on the processing

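Counts and medians below are of the downstream loci unless named otherwise, and the cause of a change was not tested except where the setting itself keeps fewer loci. Calls higher in chromatin were 246, and calls higher in nucleoplasm were 47. Leaving out 1 library gave 242 to 251 and 37 to 49, a median log2 fold change of 1.44 to 1.49, and 211 to 218 ratios higher and 19 to 22 lower with a median of 1.00 to 1.14. Leaving out 1 long-read library gave 162 to 168 loci overlapped by long reads and 41 to 42 overlapped together with their gene. Setting libraries to the same total gave 17 nucleoplasm calls and a median of 1.89, and the same ERCC total gave 145 and 147 calls and 0.18. A pseudocount of 5 gave medians of 1.32 and, for the ratio, 0.91. A mean of at least 50 gave 140 chromatin calls, a median of 1.32, and 117 ratios higher and 7 lower. A 2-fold threshold gave 126 nucleoplasm calls, and any change of the ratio gave 50 lower. Loci within 5 kb had medians of 1.27 and 0.86. Keeping only upstream protein-coding genes gave 3 nucleoplasm calls and a median of 2.77. Of the alternatives chosen after seeing the data, the same restriction gave a median ratio difference of 2.50 and 3 ratios lower, leaving out loci that match a transcript gave 2 nucleoplasm calls, medians of 2.78 and 2.33 and 11 ratios lower, and upstream processed pseudogenes alone gave 9 chromatin calls and a median of -1.48, the reverse of the whole. Long-read transcripts, whose strand is uncertain, overlapped 83 loci together with their gene when either strand was taken. edgeR and DESeq2 called 253 and 256 loci higher in chromatin and 47 and 36 higher in nucleoplasm.

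Single loci changed sign as follows. With the same ERCC total, log2 fold changes were -0.10 (signal recognition particle RNA copy), -1.08 (GNGT2), -0.20 (H3C14), -0.87 (RNU6-1254P) and -1.06 (PDE4DIPP8), and with the same total 0.22 (the locus 3117 bases after ENSG00000226521). Leaving out 1 library gave PDE4DIPP8 -0.27 (chromatin replicate 3) to 0.57 and YWHAEP5 -5.01 to 0.66 (chromatin replicate 1). Ratio differences changed sign for the locus 693 bases after ENSG00000226521 (0.020 without chromatin replicate 1, range from -0.36), ATP1B3P1 (0.088 without chromatin replicate 1, range from -2.87), EIF5AP4 (-0.0044 without chromatin replicate 3, range to 0.15) and YWHAEP5 (-0.52, -0.59 and -2.67 without chromatin replicate 2, chromatin replicate 3 and nucleoplasm replicate 1, range to 3.01). With the replicate block, 247 and 47 loci were called and 214 ratios were higher and 20 lower. The authors' methods name 3 independent cultures, and neither the methods nor the labels tie the replicate numbers to them. Every library deviated most like the library of its own number in the other fraction, which is a hint from the data that the numbers mark cultures.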
